A study of Mus musculus with 6 samples.

Results

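Heat shock proteins and chaperones were described in YFP+ luminal mammary epithelial cells (MECs) of mice with floxed or wild-type Runx1 alleles. The genes form a list of 38, drawn up with earlier results of these data known: small heat shock proteins, the Hsp70, Hsp110 and Hsp90 families with their partner proteins, the mitochondrial and cytosolic chaperonins and the heat shock factors. Where several probe sets named only that gene, the one with the highest mean intensity over the 6 arrays stood for it. Such a probe set was named here for 36 of the 38 genes, of 18194 genes in all. Hsp90ab1 and Hsf1 were not analysed here. Hsf2 lay below the intensity filter, which leaves 35 members among the 12152 genes tested.

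The Runx1-null group held 3 MMTV-Cre;Runx1L/L;R26Y mice and the Runx1-WT group 3 MMTV-Cre;Runx1+/+;R26Y mice, all adult virgin females of a mixed B6/129/FVB background. Runx1L is a floxed allele and R26Y a reporter that turns on YFP where Cre has acted, so both genotypes carried the MMTV-Cre transgene, whose promoter is active in mammary epithelium, and the reporter. The glands were digested to single cells, the YFP+ luminal cells (Lin-CD24+CD29lo) were sorted, and the amplified RNA of each mouse was put on 1 Affymetrix Mouse Genome 430 2.0 array. Values are linear intensities that the authors normalized with dChip, and differences are log2 intensities of Runx1-null minus Runx1-WT mice. Mice are numbered 1 to 3 within a genotype, and a number pairs no mice.

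Luminal keratin and epithelial markers were bright on every array, with summed intensities of Krt8, Krt18, Krt19, Epcam and Cd24a of 55546 to 59073 in Runx1-WT and 56365 to 63750 in Runx1-null mice. Runx1 itself was at 2015 to 4082 in Runx1-WT mice, against 2277 to 4820 in Runx1-null mice. The position of its probes relative to the deleted part was not analysed, so these values say nothing of the deletion. By qRT-PCR the paper reports loss of Runx1 in YFP+ MECs of Runx1L/L mice. Among their luminal cells the fall was strong in progenitors and slight in mature cells. The paper proposes that many of these mature cells escaped excision, so Runx1-null names a genotype here and not the state of every cell. RNA quality was read from the Gapdh controls, as the log2 intensity at its 3' end minus that at its 5' end. It was higher in every Runx1-null mouse, with means of 0.54 ± 0.07 (SD, n = 3) against 0.46 ± 0.003 (SD, n = 3; two-sided exact permutation test, p = 0.1, which no 3 mice against 3 can go below), and its part in the results was not tested. The same measure of beta-actin overlapped between genotypes (exact permutation test, p = 0.8). In bulk RNA of sorted cells, fewer cells of a type and less RNA per cell cannot be told apart.

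Chaperones hold unfolded proteins, help them to fold and keep them from aggregating. Hsp70 proteins bind short exposed stretches of a client protein in a cycle driven by ATP: J-domain proteins deliver the client, and nucleotide exchange factors such as the Hsp110 and BAG proteins release it. Hsp90 and its co-chaperones take over clients such as kinases and steroid receptors, including those for estrogen and progesterone, and chaperonins enclose proteins in a barrel. Heat, proteotoxic drugs and other stresses raise many of these genes through heat shock factor 1 (HSF1), which binds repeated GAA units, the heat shock element, in their promoters.

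The promoters of several members carry that element, and 6 stretches are shown because they belong to the member whose genotypes lay farthest apart relative to its spread (Hspb1), to the near-identical pair whose intensities were lowest in 1 Runx1-WT mouse (Hspa1a and Hspa1b), to an Hsp110 gene (Hsph1) and to the pair that shares a promoter (Hspd1 and Hspe1). Sequences are from RefSeq on GRCm38.p6, 5′ to 3′ on the strand of the gene, and capitals mark matches to 2 or more heat shock units, GAANNTTC or TTCNNGAA. Positions count from the annotated start of the transcript.
Hspb1, chr5:135887769-135887868, plus strand, bases -150 to -51: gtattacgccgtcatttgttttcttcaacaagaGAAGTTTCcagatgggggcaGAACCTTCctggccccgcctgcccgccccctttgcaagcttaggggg
Hspa1a, chr17:34972207-34972306, minus strand, bases -150 to -51: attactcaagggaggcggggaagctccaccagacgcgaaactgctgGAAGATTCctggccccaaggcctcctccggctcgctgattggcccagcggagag
Hspa1b, chr17:34959289-34959388, minus strand, bases -150 to -51: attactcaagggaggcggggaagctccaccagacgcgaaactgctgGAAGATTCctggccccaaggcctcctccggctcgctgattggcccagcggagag
Hsph1, chr5:149636337-149636396, minus strand, bases -60 to -1: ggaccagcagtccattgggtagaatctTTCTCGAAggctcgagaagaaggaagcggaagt
Hspe1, chr1:55088053-55088082, plus strand, bases -95 to -66: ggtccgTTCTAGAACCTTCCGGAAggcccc
Hspd1, chr1:55088053-55088082, minus strand, bases -150 to -121: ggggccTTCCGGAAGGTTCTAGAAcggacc

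The Hspb1 stretch holds 2 separate elements, which begin 117 and 97 bases before the start. The Hspa1a and Hspa1b stretches are the same in every base, and their windows of 300 bases match at 296 positions, although the genes start 12918 bases apart on chromosome 17. Hspd1 and Hspe1, which encode the ring and the lid of the mitochondrial chaperonin, are transcribed away from each other from starts 216 bases apart, and the same element is read on opposite strands in their lines. RefSeq lists another start of Hspd1, at chr1:55088243, which lies 95 bases beyond that of Hspe1.

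Windows of 250 bases before and 50 after the start were given for 31 of the 38 genes and 27025 genes in all, with several windows for some genes. An element of 3 units (GAANNTTCNNGAA or TTCNNGAANNTTC) was found in 5 of the 31 members, or 16.1%, against 0.662% of all genes, and these were Hsph1, Dnajb6, Chordc1, Hspd1 and Hspe1. The shorter element of 2 units, which is also part of the longer one, was in 15 of 31 members (48.4%), against 17.0% of all genes. The CCAAT box (CCAAT or ATTGG) was in 48.4% of members and 41.1% of all genes, and TATAAA or TTTATA in 1 member, Stip1 (3.23%), against 15.7% of all genes. The letters TGTGGT or ACCACA, a core motif of RUNX proteins, were in 0 of 31 members and 18.9% of all genes, which says only that these letters are not in these windows. Of the tested members with the element of 2 units, 13 of 15 had a difference above 0, with a median of 0.12. Of those whose window lacked it, 13 of 15 did, with a median of 0.10. Dnajb1, grouped below as heat-inducible, is among those without it, and tested members that have no window are in neither group. A link between the element and the differences was not tested.

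In Runx1-null luminal cells most chaperone genes had slightly higher mean intensities, and Hspb1 combined a 1.33-fold difference with tight values in each genotype. The log2 difference was above 0 for 30 of the 35 members tested and below 0 for 5, where 44.6% of all tested genes lay above 0. Their median difference was 0.10, against -0.02 over all tested genes. Limma called 0 members and 0 of the 12152 genes at an adjusted p under 0.05 (0% of all genes). At an unadjusted p under 0.05 it gave 1 member, Hspb1, and 234 genes in all (1.93%). The genotypes did not overlap for 3 members, against 5.55% of all tested genes. Hspb1 and Dnajb1 were higher in every Runx1-null mouse (2.08% of all genes were), and St13 was lower. The list was drawn up with results of these data known, so these counts are a description and carry no test.

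The shares above 0 moved with the scaling of the arrays, whose median intensities were 106 to 163 as deposited. After quantile normalization 32 members and 53.5% of all genes lay above 0, and after scaling every array to the same median 34 members and 64.7% of all genes did. Median scaling moved the median of all genes from -0.02 to 0.07 and that of the members from 0.10 to 0.19. Hspb1 was apart under all 3 scalings, while Dnajb1 and St13 overlapped after median scaling and Chordc1 no longer did.

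**Figure D1:**
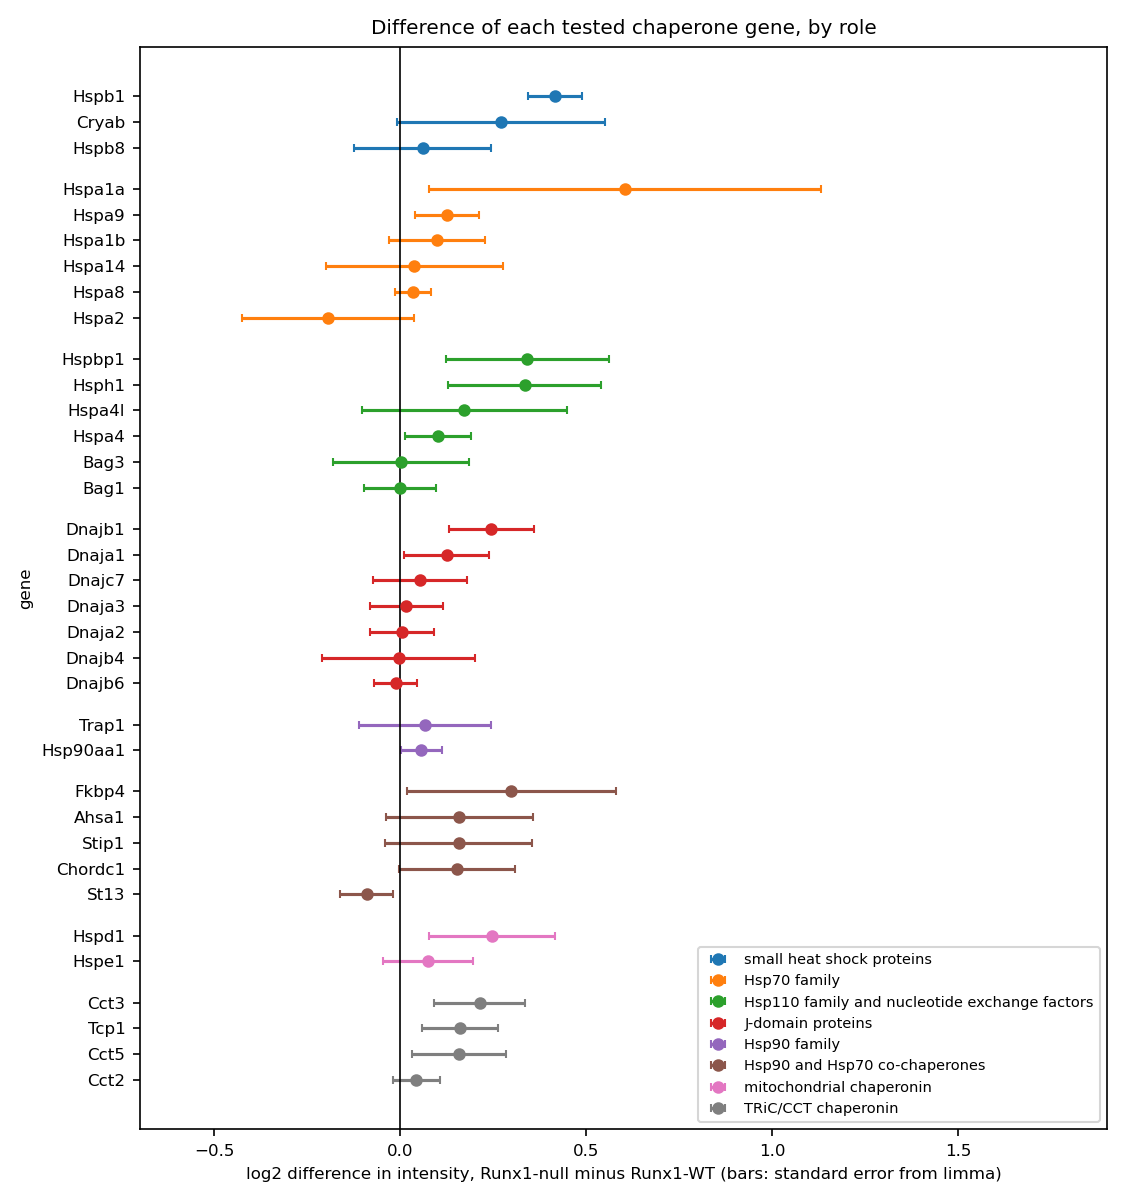
Log2 difference in intensity between 3 Runx1-null and 3 Runx1-WT mice (points) with limma's standard error (bars) for each of the 35 tested chaperone genes, coloured by role. Most points lie between 0 and 0.35, Hspb1 stands at 0.42 with a standard error of 0.07, and Hspa1a at 0.60 has the widest bar, 0.53.

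Small heat shock proteins bind unfolding proteins without ATP and hold them for the Hsp70 system. Hspb1 (HSP25 in mouse, probe set 1422943_a_at) had intensities of 4451, 4426 and 4637 in Runx1-WT mice and 5725, 6052 and 6266 in Runx1-null mice. All Runx1-null values lay above all Runx1-WT values, and the gap between the groups was larger than the range within either. The means were 4505 ± 115 (SD, n = 3) and 6014 ± 272 (SD, n = 3), a 1.33-fold difference. Its log2 difference was 0.42 (standard error 0.07). By limma it ranked 1 of 12152 genes in unadjusted p (0.000736), and its adjusted p over all of them was 0.9997 (Benjamini-Hochberg). Its unadjusted p was 0.0107 in limma without the intensity trend and 0.0449 after median scaling. Another Hspb1 probe set, 1425964_x_at, read 3629, 4041 and 3687 in Runx1-WT mice and 4799, 4992 and 5246 in Runx1-null mice. It separated the genotypes too, with a log2 difference of 0.41. The Hspb1 difference stayed between 0.39 and 0.45 when each mouse was left out in turn.

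Cryab encodes alpha B-crystallin, a small heat shock protein of lens, muscle and myoepithelium. It read 4794, 3249 and 7058 in Runx1-WT mice and 6730, 6094 and 4713 in Runx1-null mice. The lowest and the highest value were both from Runx1-WT mice, so its log2 difference of 0.27 (standard error 0.28) was within the spread. It was -0.009 when Runx1-WT mouse 2 was left out and 0.55 when mouse 3 was. The mean deviation of 6 tested basal and myoepithelial markers from their mean over the 6 mice was -0.24, -0.52 and 0.33 in Runx1-WT mice and 0.33, 0.76 and -0.67 in Runx1-null mice. It thus had the order of Cryab among Runx1-WT mice, but its extremes were Runx1-null mice, and its part was not tested. Summed intensities of these markers with Myh11 and Cnn1 were 4565 to 8633 in Runx1-WT and 4347 to 11166 in Runx1-null mice. Myh11 and Cnn1 were below the intensity filter, and 4 of the 6 tested markers had a difference above 0. Hspb8, the partner of Bag3 in clearing aggregates by autophagy, had a log2 difference of 0.06 (standard error 0.18), with 2377 to 3134 in Runx1-WT and 2446 to 3430 in Runx1-null mice.

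The Hsp70 family held the widest difference between mice. Hspa1a, a stress-inducible cytosolic Hsp70, read 1509, 1526 and 398 in Runx1-WT mice and 1503, 1808 and 1183 in Runx1-null mice. Runx1-WT mouse 3 was far below the other 5 mice, which spanned 1183 to 1808. The log2 difference of 0.60 (standard error 0.53) rested on that mouse, and without it the difference was -0.04. Hspa1b, whose product is nearly the same protein, was lowest in that mouse as well, at 6394 against 7702 to 8996 in the others, with a difference of 0.10 (standard error 0.13). Probes of such near-identical genes can read each other's transcripts, so the values of the pair are not independent.

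Hspa2, an Hsp70 known from the testis, went the other way. It read 3914, 2845 and 2621 in Runx1-WT mice and 2011, 3140 and 3084 in Runx1-null mice. The genotypes overlapped, and its log2 difference was -0.19 (standard error 0.23), the lowest of the members. The constitutive cytosolic Hsp70, Hspa8, differed by 0.03 (standard error 0.05), within 9839 to 10870 in all mice. Hspa9, the mitochondrial Hsp70, differed by 0.13 (standard error 0.09) and Hspa14, a ribosome-associated one, by 0.04 (standard error 0.24). The class median was 0.07, with 5 of 6 members above 0.

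Hsp110 proteins and other exchange factors make Hsp70 let go of its client. Hsph1 (Hsp105) read 4566, 2986 and 5183 in Runx1-WT mice and 5685, 5324 and 4681 in Runx1-null mice. Runx1-WT mouse 2 was the lowest by a wide margin, and the log2 difference of 0.33 (standard error 0.21) did not exceed the spread and was 0.10 without that mouse. Hspbp1, an Hsp70-binding exchange factor, read 603, 609 and 880 in Runx1-WT mice and 987, 835 and 797 in Runx1-null mice. Here Runx1-WT mice 1 and 2 lay below all others, with mouse 3 among the Runx1-null values, and the difference was 0.34 (standard error 0.22). Hspa4l (0.17, standard error 0.27) and Hspa4 (0.10, standard error 0.09), also of the Hsp110 family, had smaller log2 differences. The BAG-domain factors Bag1 (-0.002, standard error 0.10) and Bag3 (0.002, standard error 0.18) were at 0, although Bag3 ran from 2313 in Runx1-WT mouse 3 to 3445 in Runx1-WT mouse 2.

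J-domain proteins bring clients to Hsp70 and start its ATPase. Dnajb1 (Hsp40) and Dnajb4 are the J-domain members grouped below as heat-inducible. Dnajb1 read 4727, 4847 and 3841 in Runx1-WT mice and 5046, 5076 and 5715 in Runx1-null mice. The groups did not overlap, but only a narrow gap, from 4847 to 5046, parted them. The means were 4472 ± 549 (SD, n = 3) and 5279 ± 378 (SD, n = 3), with a log2 difference of 0.24 (standard error 0.11; limma, unadjusted p = 0.0711) that was 0.14 without Runx1-WT mouse 3. Another Dnajb1 probe set read 1597, 1824 and 1344 in Runx1-WT mice and 1356, 1617 and 3238 in Runx1-null mice. On that probe set the genotypes overlapped, and its difference of 0.29 came with 1 high value, in Runx1-null mouse 3.

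Dnaja1, a farnesylated cytosolic partner of Hsp70, read 4268, 4003 and 5089 in Runx1-WT mice and 4719, 4575 and 5221 in Runx1-null mice. The groups overlapped, with a difference of 0.12 (standard error 0.11). The other J-domain members lay within 0.06 of 0 on the log2 scale: Dnaja2, Dnajb4, Dnajb6, Dnajc7 and the mitochondrial Dnaja3. Their class median was 0.02. Dnajb4 hid a large spread behind its difference of -0.005, from 1987 in Runx1-WT mouse 3 to 3286 in Runx1-WT mouse 1.

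Hsp90aa1, the inducible cytosolic Hsp90, read 7866, 8466 and 8382 in Runx1-WT mice and 8434, 8345 and 8913 in Runx1-null mice. These values overlapped in a narrow band, with a log2 difference of 0.06 (standard error 0.05). Another Hsp90aa1 probe set read 6062, 6291 and 6582 in Runx1-WT mice and 7385, 6768 and 6614 in Runx1-null mice. There the genotypes did not overlap, with 6582 and 6614 nearly equal and a log2 difference of 0.13. Trap1, the mitochondrial Hsp90, read 1305, 1191 and 1652 in Runx1-WT mice and 1537, 1420 and 1351 in Runx1-null mice. Its difference was 0.07 (standard error 0.18), and Runx1-WT mouse 3 was the highest of the 6.

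Co-chaperones guide clients to Hsp90 and set the pace of its cycle. Fkbp4 (FKBP52), an immunophilin of steroid receptor complexes, read 980, 839 and 1691 in Runx1-WT mice and 1538, 1349 and 1247 in Runx1-null mice. Ahsa1, the activator of the Hsp90 ATPase, read 1744, 1543 and 2466 in Runx1-WT mice and 1980, 2167 and 2153 in Runx1-null mice. Both genes were lowest in Runx1-WT mice 1 and 2 and highest in Runx1-WT mouse 3, and their log2 differences, 0.30 for Fkbp4 (standard error 0.28) and 0.16 for Ahsa1 (standard error 0.20), were within the spread. Without Runx1-WT mouse 2 the difference of Fkbp4 was 0.09, and without Runx1-WT mouse 3 it was 0.60. Stip1 (Hop), which joins Hsp70 to Hsp90, differed by 0.16 (standard error 0.20) and Chordc1, an Hsp90-binding protein, by 0.15 (standard error 0.16).

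St13 (Hip), which holds Hsp70 in its client-bound state, was the 1 tested member that was lower in every Runx1-null mouse. It read 5908, 5971 and 5765 in Runx1-WT mice and 5176, 5649 and 5761 in Runx1-null mice. The closest values, 5765 and 5761, were nearly equal, and the log2 difference was -0.09 (standard error 0.07). The other St13 probe sets gave 0.06 and -0.11, and after median scaling the difference was 0.0005.

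**Figure D2:**
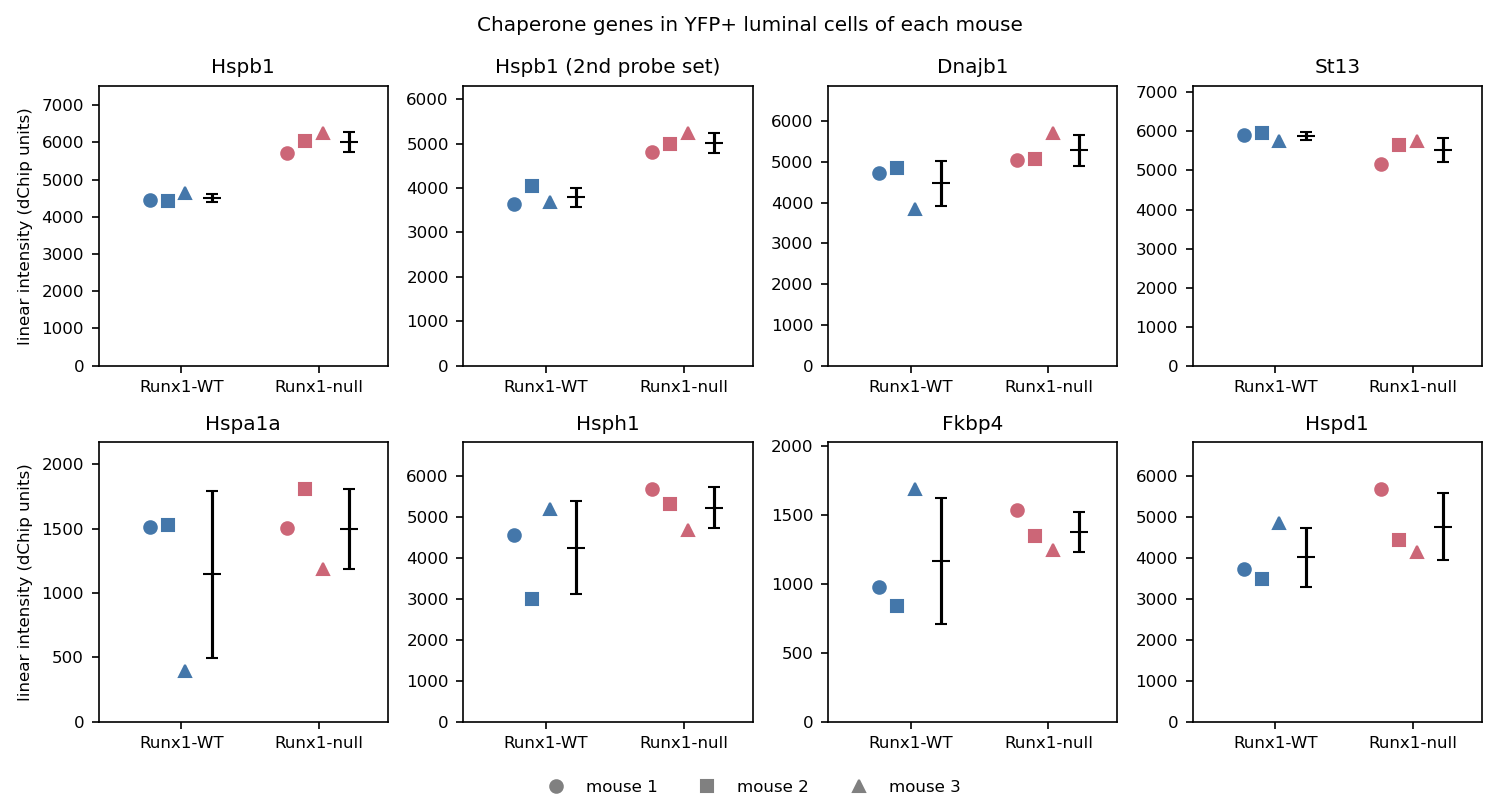
Linear array intensity of 7 chaperone genes in each mouse (points, shape by mouse number), for each genotype (bars: mean and SD of 3 mice), including a second probe set of Hspb1. The genotypes are apart for both Hspb1 probe sets, for Dnajb1 and for St13, while Hspa1a is low in Runx1-WT mouse 3 and Fkbp4 and Hspd1 are low in Runx1-WT mice 1 and 2.

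The mitochondrial chaperonin, Hspd1 (HSP60) with its lid Hspe1 (HSP10), folds proteins imported into the matrix. Hspd1 read 3718, 3473 and 4834 in Runx1-WT mice and 5677, 4437 and 4138 in Runx1-null mice. Hspe1 read 6089, 5740 and 7566 in Runx1-WT mice and 7496, 6570 and 6272 in Runx1-null mice. The genes, which share the promoter shown above, had the same order of mice except at the top: Runx1-WT mice 2 and 1 were lowest for both, and Runx1-null mouse 1 and Runx1-WT mouse 3 highest. Their log2 differences were 0.25 (standard error 0.17) and 0.07 (standard error 0.12). The 5 mitochondrial members, these with Hspa9, Trap1 and Dnaja3, were all above 0, with a median of 0.07.

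TRiC/CCT is the ring chaperonin of the cytosol that folds actin and tubulin. Cct3 read 5706, 5409 and 7468 in Runx1-WT mice and 7188, 6989 and 7157 in Runx1-null mice. Tcp1 read 5723, 4998 and 6457 in Runx1-WT mice and 6510, 6079 and 6511 in Runx1-null mice. For both subunits Runx1-WT mice 1 and 2 lay below the other 4 mice, with Runx1-WT mouse 3 among or above the Runx1-null mice. The log2 differences were 0.21 (standard error 0.12) and 0.16 (standard error 0.10), with 0.16 (standard error 0.13) for Cct5 and 0.04 (standard error 0.06) for Cct2. The class median of 0.16 became 0.27 when Runx1-WT mouse 3 was left out. Leaving out Runx1-WT mouse 2 gave 0.07, with Cct5 at 0.08, Tcp1 at 0.07 and Cct2 at -0.006. Of 12 other genes listed with TRiC and prefoldin 8 lay above 0, with a median of 0.07. The TRiC subunits Cct4 (0.07), Cct6a (0.19), Cct7 (0.13) and Cct8 (0.18) were among these. Below 0 were the prefoldin subunits Pfdn1, Pfdn2, Pfdn5 and Vbp1.

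Of the heat shock factors, Hsf2 was near the limit of measurement. It read 21.2, 20.2 and 23.3 in Runx1-WT mice and 16.8, 18.0 and 19.7 in Runx1-null mice, where values below 19.335 were set to that floor before taking log2. It was lower in every Runx1-null mouse, but 2 of 6 arrays were under the floor and it was not tested. Hsf1 was not analysed here.

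Differences between mice of 1 genotype were often as large as those between genotypes, as the plot of deviations by mouse shows. Runx1-WT mouse 2 had the lowest value of the 6 mice for 19 of the 35 members, against 25.1% of all tested genes. Runx1-WT mice 1 and 2 were the 2 lowest mice for 15 members (42.9%), against 11.3% of all genes. These were Hspb1, Hspa8, Hspa9, Hsph1, Hspbp1, Dnaja1, Trap1, Stip1, Ahsa1, Fkbp4, Hspd1, Hspe1, Cct3, Cct5 and Tcp1. Both mitochondrial chaperonin genes and 3 of the 4 TRiC/CCT genes were among them. Runx1-WT mouse 3 lay above both other Runx1-WT mice for 22 members (62.9%, against 44.3% of all genes) and was the highest of all 6 mice for 12 (24.5% of all genes).

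The same mouse was the lowest of all 6 for another 6 members, Hspa1a, Hspa1b, Hspa4, Bag3, Dnajb1 and Dnajb4, where it was the lowest for 13.1% of all genes. Except for Hspa4, these are among 13 members grouped here as heat-inducible. The others in that group are Hspb1, Hspb8, Cryab, Hsph1, Hsp90aa1, Chordc1, Hspa4l and Ahsa1. Of the 13, 12 had a difference above 0, with a median of 0.16. The mean deviation of the 13 from their mean over the 6 mice was 0.005, -0.10 and -0.20 in Runx1-WT mice and 0.12, 0.16 and 0.01 in Runx1-null mice. The closest mice of the genotypes, at 0.005 and 0.01, were nearly equal. The -0.20 of Runx1-WT mouse 3 drew heavily on Hspa1a, at -1.59. The rest of the group ran from -0.42 (Dnajb4) to 0.42 (Cryab) in that mouse. Dnajb6, Hspd1 and Hspe1, whose windows hold the element of 3 units, were not in the group. They deviated by 0.05, 0.16 and 0.20 in the same mouse. Immediate early genes, which respond within minutes to stress and handling, had mean deviations of 0.12, 0.04 and -0.22 in Runx1-WT mice and -0.33, 0.18 and 0.21 in Runx1-null mice. They were thus low in Runx1-WT mouse 3, like Hspa1a, and also in Runx1-null mouse 1, where Hspa1a was not low. Of 17 tested, 11 lay above 0, with a median of 0.04 and summed intensities of 67332 to 83854 in Runx1-WT and 66604 to 88019 in Runx1-null mice, and their part in the chaperone values was not tested.

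**Figure D3:**
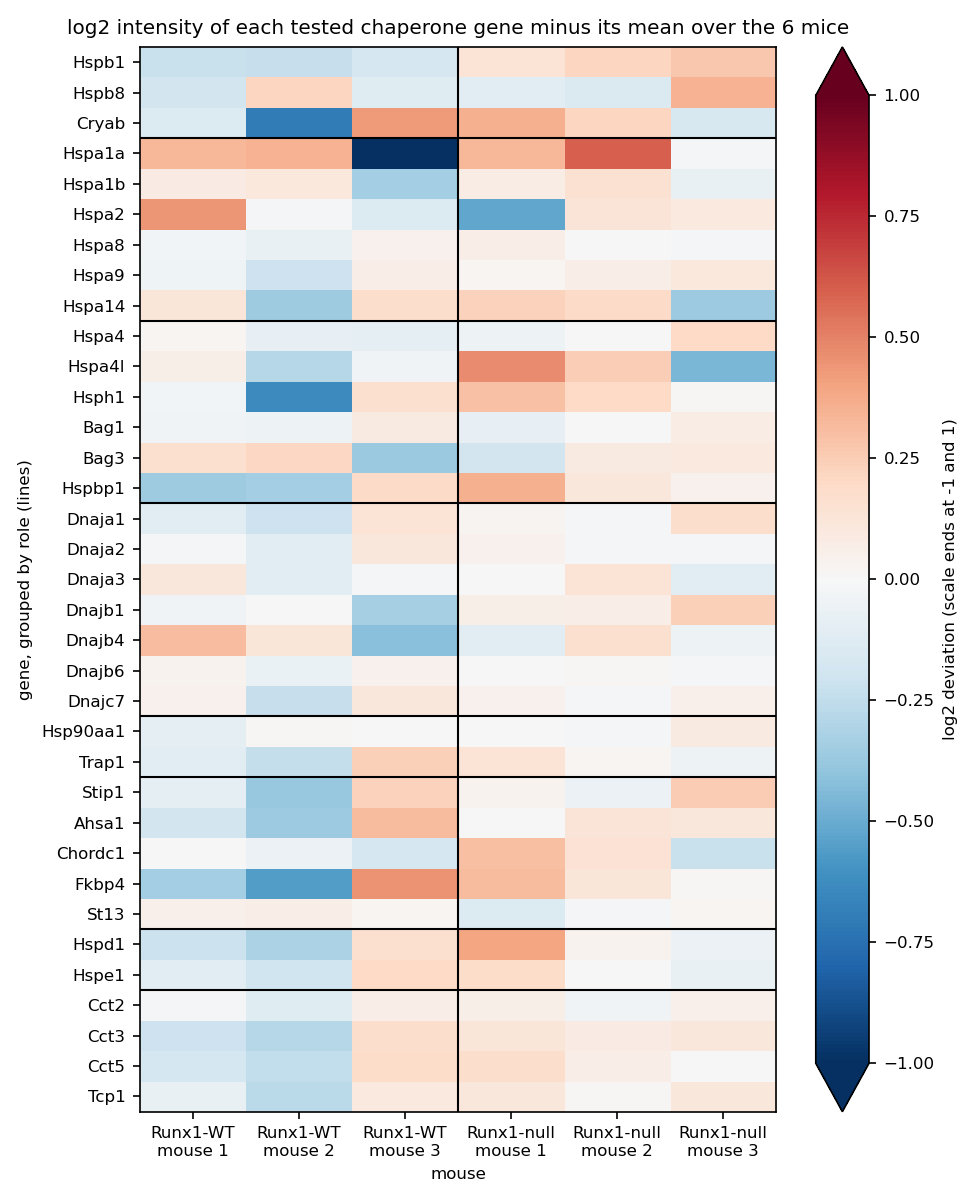
Log2 intensity of each of the 35 tested chaperone genes minus its mean over the 6 mice (colour, with the scale ending at -1 and 1), with mice in columns and genes grouped by role. Runx1-WT mouse 2 is the lowest mouse for 19 genes, and Runx1-WT mouse 3 is high for the chaperonins, Stip1, Ahsa1 and Fkbp4 and low for Hspa1a, Hspa1b, Bag3, Dnajb1 and Dnajb4.

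Markers of the kinds of mammary cells also varied between these mice, within and between genotypes. By flow cytometry the paper reports a smaller share of mature luminal cells among YFP+ luminal cells of Runx1L/L females than of Runx1+/+ females. The share of progenitors was larger. The 4 tested markers of mature luminal cells (Esr1, Pgr, Foxa1 and Cited1) had mean deviations of 0.42, 0.41 and -0.27 in Runx1-WT mice and -0.49, 0.07 and -0.13 in Runx1-null mice. They were thus highest in Runx1-WT mice 1 and 2, the mice in which the chaperonins were lowest. Their summed intensities were 15406 to 24295 in Runx1-WT and 13104 to 19326 in Runx1-null mice, and 1 of 4, Pgr, had a difference above 0. Markers of luminal progenitors were lowest in Runx1-WT mouse 2 (mean deviation -0.46), with 5 of 5 above 0 and summed intensities of 28227 to 33697 and 33536 to 36664. Runx1-WT mouse 3 stood apart in leukocyte markers. Cd3e, Cd68, Lyz2, Ptprc and Itgam summed to 2751 there, against 651 to 1091 in the other 5 mice. Cd3e, Cd68 and Lyz2 had differences below 0, and Ptprc and Itgam were below the intensity filter. All 6 fibroblast markers were below 0 as well, with sums of 11608 to 13641 in Runx1-WT and 4581 to 12127 in Runx1-null mice. The 3 tested endothelial markers were below 0 too. Their sums with Cdh5 were 473 to 688 in Runx1-WT and 288 to 446 in Runx1-null mice, which did not overlap. Kdr was lower in every Runx1-null mouse, and Cdh5 was below the intensity filter. The part of these cells in the chaperone values was not tested.

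The titles number the animals in the 600s (Runx1-WT mice 1 and 2, Runx1-null mice 1 and 2) and in the 800s (1 mouse of each genotype, mouse 3), and the chaperone differences were not the same in both ranges. In the 600s 30 of 35 members lay above 0, with a median of 0.17 against 0.01 over all genes. In the 800s, with 1 mouse against 1 and so no replicate, 14 members lay above 0 and 21 below, with a median of -0.05 against -0.09 over all genes, of which 40.7% were above 0. In both ranges 10 members lay above 0 (28.6%, against 11.9% of all genes): Hspb1, Hspa1a, Hspa1b, Hspa9, Hspa4, Dnaja1, Dnajb1, Hsp90aa1, Stip1 and Tcp1. Hspb1 kept its size, at 0.41 in the 600s and 0.43 in the 800s. Another 20 members were above 0 in the 600s and below in the 800s, such as Fkbp4 (0.67 and -0.44), Cryab (0.70 and -0.58) and Hspd1 (0.48 and -0.22). The heat-inducible Hspb8, Bag3 and Dnajb4, with Hspa2, had the opposite order, below 0 in the 600s and above in the 800s. St13 was the 1 member below 0 in both, at -0.14 and -0.001. The difference between the ranges was not tested. Runx1-null mouse 3, the only Runx1-null mouse of the 800s, had the highest 3' minus 5' value of both RNA quality controls, whose part was not tested.

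**Figure D4:**
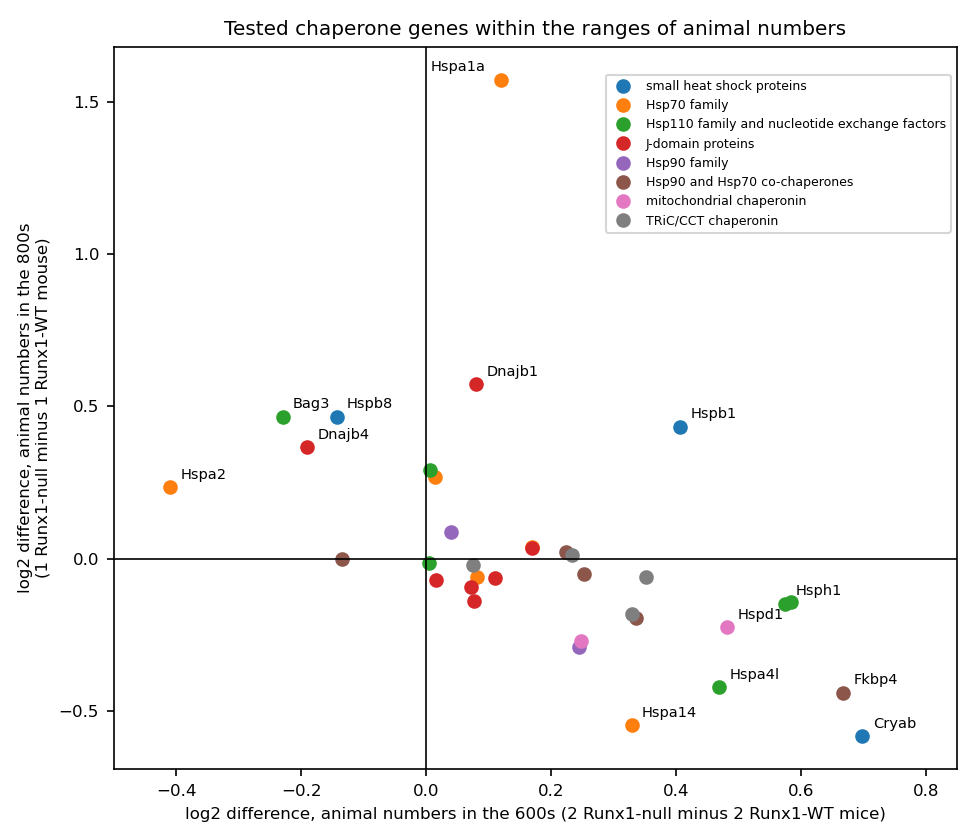
Log2 difference of each of the 35 tested chaperone genes among the mice with animal numbers in the 600s (horizontal axis, 2 mice per genotype) and in the 800s (vertical axis, 1 mouse per genotype), coloured by role. Hspb1 lies at 0.41 and 0.43, 20 genes lie at the lower right (above 0 in the 600s, below in the 800s), and Hspa1a is at 0.12 and 1.57.

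Other genes of the Hsp70, Hsp90, small heat shock, chaperonin and mitochondrial proteostasis groups were spread about evenly around 0. Outside the list 49 such genes were tested. Their median difference was 0.004, 26 being higher and 23 lower in Runx1-null mice by their means. The highest were Fkbp5, a glucocorticoid-induced partner of Hsp90, at 0.84 (standard error 0.36), and Unc45a, a myosin chaperone, at 0.38 (standard error 0.17). Unc45a read 994, 1200 and 982 in Runx1-WT mice and 1334, 1254 and 1531 in Runx1-null mice, with no overlap. Fkbp5 was at 1.34 in the 600s and -0.16 in the 800s. The lowest were the J-domain gene Dnaja4 at -0.47 (standard error 0.38) and Hspb2, a small heat shock protein of muscle, at -0.31 (standard error 0.38). Both changed sign between the ranges of animal numbers, Dnaja4 with -1.09 in the 600s and 0.78 in the 800s and Hspb2 with 0.11 and -1.15. Hspa13 and the prefoldin subunit Vbp1 were lower in every Runx1-null mouse, with differences of -0.16 and -0.09.

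Chaperones of the endoplasmic reticulum, many of which are controlled by the unfolded protein response, had 12 of 15 differences above 0 and a median of 0.11. Calr, a lectin chaperone, was higher in every Runx1-null mouse with a log2 difference of 0.08 (standard error 0.05), and Hyou1, the Hsp110 of the endoplasmic reticulum, with 0.12 (standard error 0.10). Creld2 (0.33) and Manf (0.32), secreted proteins of that response, were the highest. Dnajc3 (-0.17) was the lowest. The mean deviation of these 15 genes was 0.27 in Runx1-null mouse 3 and between -0.14 and 0.05 in the other 5 mice, while that of the 35 cytosolic and mitochondrial members in Runx1-null mouse 3 was 0.02.

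The summed intensity of the 36 members with a probe set, Hsf2 included, was 150321, 139929 and 156773 in Runx1-WT mice. It was 161830, 160009 and 157812 in Runx1-null mice. The closest mice of the genotypes, Runx1-WT mouse 3 and Runx1-null mouse 3, were nearly equal, and the choice of the genes was made with results known, so this order supports nothing by itself. Within a genotype the 35 tested members varied less than genes in general. Their median residual SD was 0.18 on the log2 scale against 0.27 over all tested genes, which were not matched on intensity. Hspb1 had one of 0.05 and Hspa1a one of 0.82.

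Other probe sets of the members did not always follow the brightest one. The 36 genes had 93 probe sets, of which 84 passed the intensity filter. Of 24 members with more than 1 such probe set, 13 had all of them on the same side of 0, among them Hspb1, Hspa1b, Hsph1 and Dnajb1, and 11 had them on both sides: Hspa8, Hspa9, Hspa14, Hspa4, Dnaja2, Dnajb6, Ahsa1, Fkbp4, St13, Cct2 and Cct3.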

How the data were processed

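Sorted YFP+ luminal MECs of 6 mice were measured on 1 array each. The deposited table holds linear intensities of 45101 probe sets, which the authors normalized across arrays with dChip. Its version and model are not given in the sources used here. The reference pairing of probe sets with genes gave exactly 1 symbol to 34958 of them and several to 932, and 9211 stayed without a name here. A floor of 19.335, the 20th percentile of all values, was applied before log2. Genes whose brightest probe set reached a mean of 73.5, the 40th percentile of all probe sets, were tested with limma 3.58.1 in R 4.3.3 (lmFit and eBayes with trend, all 6 mice, no covariate, Benjamini-Hochberg adjusted p under 0.05). The Gapdh value was compared by an exact permutation test (two-sided). The code was tested on simulated data.

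The members, the other lists and the tests were chosen with earlier results of these data known. Every member is named. Values in every mouse are given for members whose groups do not overlap, that have an unadjusted p under 0.05 or that have 1 of the 2 largest differences of their role. Litters, which the methods mention, are not given per mouse, so p-values take the 3 mice of a genotype as independent. Alternatives changed the filter, normalization, floor, variance model, probe sets, block and mice, and added the t-test the methods name. The number of arrays limits the precision.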

Additional observations from a re-analysis of the deposited data

How the results depend on the processing

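No alternative of the limma fit gave a call after adjustment: the count was 0 in each, 0 to 0 over the left-out mice and 0 at a threshold of 0.1. Genes with an unadjusted p under 0.05 numbered 234, but 78 to 818 over the left-out mice, 123 after median scaling, 535 without a filter and 1866 among the mice of the 600s alone. The methods' t-test gave 335 genes at p of 0.05 or less before adjustment and 0 after Benjamini-Hochberg. The members' median of 0.10 was 0.19 after median scaling and 0.17 in the 600s alone, and ran from 0.05 (without Runx1-WT mouse 2) to 0.14 (without Runx1-WT mouse 3) over the left-out mice. Members below 0 numbered 5, 12 leaving out Runx1-WT mouse 2, 8 leaving out Runx1-null mouse 2, 9 with the mean over all probe sets of a gene, 3 after quantile normalization and 1 after median scaling. Of 35 members, 15 had the same sign in all 15 alternatives, all above 0, Hspb1 among them. The 800s, with 1 mouse per genotype, are not among these alternatives, and 8 of the 15 were below 0 there. In all, 43 of 525 member values had the other sign. Both counts include the changes of filter, block and variance model. These leave a member's difference as it was, so they could not change its sign. No paired analysis was possible because the labels give no numbers or litters shared between genotypes. A block for the animal number range gave 0 calls and 305 genes at an unadjusted p under 0.05. Intensities near background, as for Hsf2, set only a bound.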
